A study of Homo sapiens with 60 samples.

Results

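Aucklandiae Radix is the dried root known as costus root, and the libraries described here come from SW1783 cells exposed to its ethanol extract at 3 doses. They are the 3 libraries, of 60 in the whole study, whose titles name this extract: High (160 µg/mL), Medium (32 µg/mL) and Low (6.4 µg/mL), each 1 library taken after 24 h. The study's design text places the high dose of an extract at its 20% inhibitory concentration (IC20) where that lies below 500 µg/mL, and the lower doses at 1/5 and 1/25 of it. The remaining libraries hold 3 vehicle libraries and 54 libraries of 7 other herbal extracts in the same cells. SW1783 is an established human astrocytoma line from the ATCC, here grown in Leibovitz's L-15 medium with fetal bovine serum, a medium whose sugar is galactose. The vehicle was dimethyl sulfoxide, given as 0.1% in the sample labels and as 2% in the design text. All libraries, treated and vehicle, were of this 1 cell line, and a tumour line in culture is a limited model of an astrocyte.

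Costus root is known for sesquiterpene lactones, above all costunolide and dehydrocostus lactone, which react with thiol groups of proteins and glutathione. The makeup of this extract was not measured here. Cells answer thiol-reactive compounds through several sensors that work in parallel. KEAP1 releases the factor NRF2, which switches on genes for glutathione, thioredoxin and heme handling. The factor ATF4 is translated when protein synthesis is slowed and drives amino acid import and synthesis. MTF1 responds to free zinc through the metallothioneins, and HSF1 responds to misfolded cytosolic proteins through the heat shock genes. Arrest of the cell cycle shows in the genes of mitosis, which are read only late in the cycle.

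With 1 library at each dose no test across replicates was possible, so every difference below is a description of these libraries. Levels are given as CPM, the count of a gene relative to the TMM-scaled total of its library, and ratios are log2 ratios with a prior count of 2. A gene was counted as higher or lower at High when it reached 10 CPM on either side and differed at least 2-fold from the mean of the Medium and Low libraries. Against the vehicle it also had to lie outside the range of the 3 vehicle libraries. A gene under 10 CPM in the reference entered through High alone and could not be counted as lower. The reverse held for a gene under 10 CPM at High. The Aucklandiae Radix libraries held 24.24, 24.08 and 24.60 M counts at High, Medium and Low, the vehicle libraries 18.73 to 20.47 M, and the series 18.73 to 35.52 M. Library names place the vehicle in a set of its own and the Aucklandiae Radix libraries in another, so against the vehicle the effect of the extract and that of the library set cannot be told apart, while the lower doses share the set of High. As a measure of spread, the SD of log2 CPM within the 19 replicated groups of the study (54 libraries) had a median of 0.087 over genes and a 95th percentile of 0.164. Nothing in the labels says that the libraries of a group came from separate cultures, so this spread may be technical. Of 12 astroglial and neural stem markers, 6 stood under 1 CPM at High and in the vehicle, among them GFAP at 0.0394 CPM, SOX2 at 0 and S100B at 0 at High, while VIM stood at 5346 CPM, CD44 at 2079.8 and SOX9 at 72.2. Several defining astrocyte markers were thus at or near 0 at High and in the vehicle. Among markers of other cells, 4 of 8 neuronal, 6 of 7 oligodendrocyte, 5 of 8 leukocyte, 5 of 7 endothelial and 5 of 6 epithelial markers stood under 1 CPM, while CD68, a lysosomal glycoprotein used as a macrophage marker, stood at 264 CPM at High and 195 ± 12.7 CPM (SD, n = 3) in the vehicle.

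High differed from the lower doses in few of the 10005 genes at 10 CPM or more: 125 genes (1.25%) were at least 2-fold higher and 346 (3.46%) at least 2-fold lower. Against the vehicle, 405 of 10123 genes (4%) were higher and 908 (8.97%) lower. Against both references 120 genes (1.2%) were higher and 317 (3.17%) lower, so lower genes outnumbered higher ones in each comparison. Scaling by total counts alone moved the numbers against the lower doses to 185 higher and 294 lower, or from 26.5% to 38.6% higher, and those against the vehicle to 528 and 775, with the median of all genes moved up by 0.10 and 0.09 on the log2 scale. With Low alone as the reference 227 genes were higher and 498 lower, and with Medium alone 84 and 260. The values just inside the threshold were log2 ratios of 1.01 for CDCP1 and DDIT3 and -1.004 for SERPINB9 (11.8 against 23.8 CPM), and the nearest outside were GPAT3 at 0.997 and CHD4 at -0.999.

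Transcript length moved with these ratios. The median log2 ratio of High to the lower doses fell from 0.21 in the shortest of 10 classes of about equal size by longest annotated transcript (up to 1.66 kb) to -0.22 in the longest (7.89 kb and more). Against the vehicle the same medians were 0.52 and -0.67, and between Medium and Low, where few genes passed 2-fold, they were 0.26 and -0.20. Spearman's rho with length across 9994 genes of the same libraries was -0.34 for High against the lower doses, -0.55 against the vehicle and -0.58 for Medium against Low. The 120 higher genes had a median transcript of 2.31 kb, the 317 lower genes 5.08 kb, and all genes 3.82 kb. What set this trend was not tested. Centring each ratio on the median of its length class, an alternative chosen after seeing the data, left 105 genes higher and 335 lower against the lower doses and 296 and 558 against the vehicle. Length-centred values are given below where they differ from the ratio by a margin that matters to the account.

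**Figure D1:**
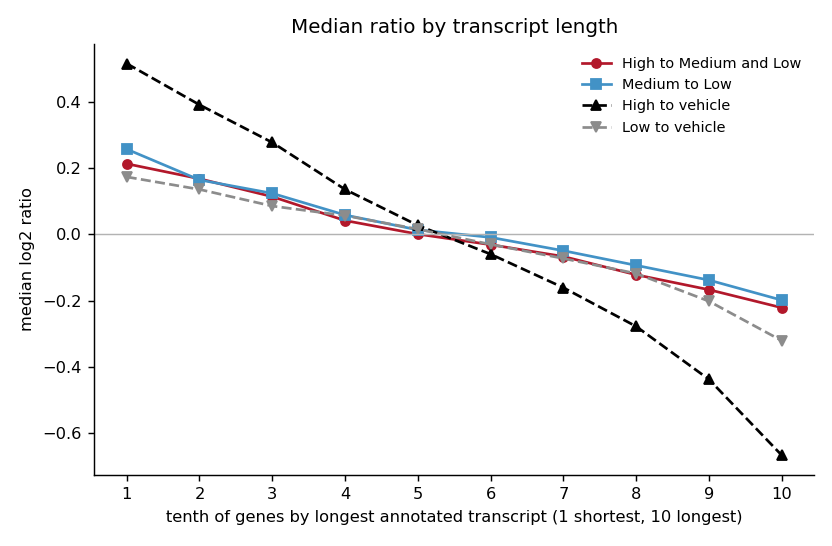
Median log2 ratio (vertical axis) of the genes in each of 10 classes of transcript length (horizontal axis, 1 shortest), for High against Medium and Low, Medium against Low, and High and Low against the vehicle. Every line slopes down, from 0.52 to -0.67 for High against the vehicle and from 0.21 to -0.22 for High against its lower doses.

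The largest increase over the lower doses was in HMOX1 (chr22:35380361-35394214, hg38), which encodes heme oxygenase 1, the enzyme that opens heme to biliverdin, iron and carbon monoxide and a classical NRF2 target. It stood at 1269 CPM at High, 94.3 at Medium, 62.5 at Low and 58.8, 49.4 and 53.7 in the vehicle libraries. High lay far above the other 5 libraries, whose range it did not touch, and its counting interval was 1255 to 1283 CPM. The level at High was 16.2-fold the mean of the lower doses (log2 ratio 4.02, 3.85 length-centred), against an SD between replicates of 0.07 for this gene elsewhere in the study. Medium was also above all 3 vehicle libraries (54.0 ± 4.68 CPM (SD, n = 3)).

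ANGPTL4 (chr19:8363289-8374373), a secreted inhibitor of lipoprotein lipase, came next and showed the steepest order over the doses. Against the vehicle, where HMOX1 had a log2 ratio of 4.55, ANGPTL4 had 4.58. Its level was 307 CPM at High, 46.2 at Medium, 10.8 at Low and 14.1, 10.2 and 14.0 in the vehicle libraries. Low lay within the vehicle range, Medium above it and High above both, with a log2 ratio of 3.43 to the lower doses together, 2.73 to Medium and 4.82 to Low. THBD (chr20:23045633-23049741), the cell surface thrombin receptor thrombomodulin, had 108 CPM at High, 17.5 at Medium, 9.73 at Low and 8.34, 8.63 and 8.98 in the vehicle libraries. It too was ordered Low, Medium, High, and its log2 ratio was 2.97 (0.08 SD between replicates).

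Transporters, enzymes and regulators made up the rest of the 12 largest increases, among them CDKN1A, which is taken up with the cell cycle genes. SLCO4A1, an organic anion transporter, stood at 63.7 CPM at High, 13.1 at Medium, 8.60 at Low and 9.18, 7.48 and 9.26 in the vehicle libraries. DUSP5, the nuclear phosphatase of ERK, had 86.3 CPM at High, 24.8 at Medium, 15.7 at Low and 15.4, 14.8 and 13.1 in the vehicle libraries. UPP1, which splits uridine to uracil and ribose phosphate, had 160.2 CPM at High, 52.2 at Medium, 34.7 at Low and 30.3, 28.5 and 28.2 in the vehicle libraries. In all of these High was the highest library and Medium the next. AKR1C1, an aldo-keto reductase under NRF2 control, stood at 105 CPM at High, 35.7 at Medium, 23.8 at Low and 18.2, 16.5 and 19.9 in the vehicle libraries, though reads of the AKR1C genes can be shared between near-identical copies. TM4SF19 (log2 ratio 2.86), TMEM171 (2.26), the ubiquitin ligase TRIM47 (2.03) and the potassium channel gene KCNC4 (1.94) were likewise highest at High. The log2 ratios of SLCO4A1, DUSP5, UPP1 and AKR1C1 to the lower doses were 2.54, 2.09, 1.88 and 1.81.

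DIO2 (chr14:80197527-80387757), the deiodinase that activates thyroid hormone, had the largest decrease against the lower doses. It stood at 2.402 CPM at High, 19.6 at Medium, 34.0 at Low and 33.0, 34.6 and 34.9 in the vehicle libraries. Low lay among the vehicle libraries, Medium below them and High lowest, with a log2 ratio of -3.44 to the lower doses. LYPD1, a Ly6-family membrane protein, had 3.31 CPM at High, 26.4 at Medium, 39.6 at Low and 36.3, 37.8 and 38.2 in the vehicle libraries and a ratio of -3.29. NEURL1B, a ubiquitin ligase that acts on Notch ligands, had 1.10 CPM at High, 9.74 at Medium, 12.9 at Low and 18.9, 17.5 and 17.2 in the vehicle libraries and a ratio of -3.27. CYP24A1, the enzyme that inactivates vitamin D, had 1.496 CPM at High, 8.94 at Medium, 12.4 at Low and 13.6, 15.8 and 15.95 in the vehicle libraries and a ratio of -2.77. In each of these 4 genes High was the lowest of the 6 libraries and the counting intervals at High stayed below the other values. Against the vehicle the decrease of NEURL1B (log2 ratio -3.92) exceeded that of DIO2 (-3.79).

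Of the remaining 8 of the 12 largest decreases, KIF20A, ASPM and MKI67 are genes of mitosis and are taken up with that list. SLIT2 and EPHA3, a guidance ligand and an ephrin receptor, stood at 2.60 and 7.48 CPM at High against 22.2 ± 2.23 CPM (SD, n = 3) and 64.8 ± 2.75 CPM (SD, n = 3) in the vehicle. PDE1C, a calmodulin-dependent phosphodiesterase, had 17.8 CPM at High, 71.5 at Medium, 109 at Low and 138, 155 and 161 in the vehicle libraries. KLHL4 and the ubiquitin ligase TRIM6 had log2 ratios of -2.43 and -2.42.

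**Figure D2:**
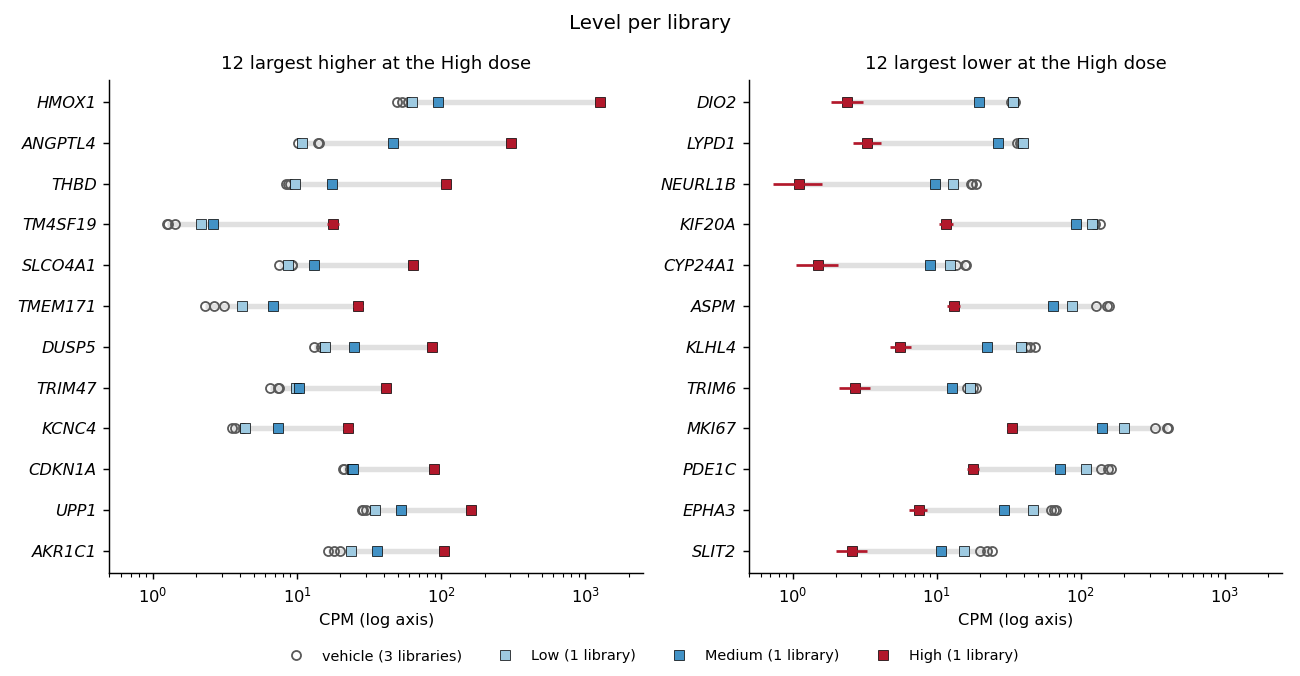
CPM on a log axis for the 12 genes with the largest increases (left) and the 12 with the largest decreases (right) at High: open circles are the 3 vehicle libraries, squares the single Low, Medium and High libraries, and the red bar the 95% counting interval at High. High stands outside the other 5 libraries in all 24 genes, with HMOX1 at 1269 CPM against at most 94.3 elsewhere.

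The genes of mitosis had the largest share of members past 2-fold of the lists with 10 or more members. All 30 members reached 10 CPM, and 29 were at least 2-fold lower at High than at the lower doses, against 3.46% of all genes. The median log2 ratio of the list was -1.53, beside -0.0033 over all genes, and it was -1.53 after length centring. Against the vehicle 27 of 30 were lower, beside 8.97% of all genes, with a median of -1.60. Medium against Low gave a list median of -0.07 with no member 2-fold apart, so the difference lay between High and Medium. The member short of 2-fold was UBE2C, the ubiquitin-conjugating enzyme of the anaphase-promoting complex, at 52.7 CPM against 97.8 and 86.6 (log2 ratio -0.81).

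KIF20A, a kinesin of cytokinesis, had 11.6 CPM at High, 91.9 at Medium, 119.8 at Low and 124, 135 and 126 in the vehicle libraries, and its log2 ratio of -3.18 was the largest of the list. PLK1, the kinase that drives entry into and exit from mitosis, had 37.4 CPM at High, 154 at Medium, 169 at Low and 149.6, 148 and 151 in the vehicle libraries. CCNB2, a cyclin partner of CDK1, had 15.9 CPM at High, 62.2 at Medium, 61.4 at Low and 63.3, 64.2 and 58.9 in the vehicle libraries. For PLK1 and CCNB2 the lower doses and the vehicle lay close together and High lay far below them, with log2 ratios of -2.11 and -1.95 and replicate SDs of 0.04 and 0.07. MKI67, the gene of the Ki-67 antigen, had 33.1 CPM at High, 141 at Medium, 199 at Low and 328, 398 and 401 in the vehicle libraries, and ASPM, a spindle pole protein, had 13.1 CPM at High, 64.1 at Medium, 87.2 at Low and 128, 152 and 157 in the vehicle libraries. These 2 genes have long transcripts (12.7 and 10.9 kb) and stood below the vehicle at Low and Medium already, where PLK1 and CCNB2 did not. The replicate SDs of MKI67 and ASPM were 0.25 and 0.20. In the Low library of Polygalae Radix, of the same library set, they stood at 168 and 71.6 CPM. Being below the vehicle at Low was thus not particular to this extract.

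Mitotic genes are known to share a promoter layout in which CCAAT boxes lie upstream of a cell cycle homology region (CHR, read TTTGAA) near the start site, the element through which the DREAM complex holds them down. The 250 bases before the start of PLK1 (chr16:23678639-23678888, plus strand, RefSeq on GRCh38.p14) and CCNB2 (chr15:59104896-59105145, plus strand) are shown because both genes were lower at High by a similar amount and carry both motifs. Capitals mark CCAAT and TTTGAA on either strand.
PLK1: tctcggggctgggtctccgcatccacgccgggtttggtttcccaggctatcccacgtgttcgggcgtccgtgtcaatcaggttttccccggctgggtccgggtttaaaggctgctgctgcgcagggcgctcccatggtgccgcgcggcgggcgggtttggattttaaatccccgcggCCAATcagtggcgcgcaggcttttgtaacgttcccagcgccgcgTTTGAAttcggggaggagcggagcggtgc
CCNB2: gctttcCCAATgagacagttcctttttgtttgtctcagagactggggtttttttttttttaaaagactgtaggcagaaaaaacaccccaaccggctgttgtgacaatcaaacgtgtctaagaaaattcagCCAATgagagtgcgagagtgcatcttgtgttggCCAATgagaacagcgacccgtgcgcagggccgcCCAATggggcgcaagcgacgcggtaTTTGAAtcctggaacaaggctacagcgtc
In PLK1 a CCAAT begins 73 bases and TTTGAA 29 bases before the start. In CCNB2 CCAAT begins at 244, 120, 87 and 54 bases and TTTGAA again at 29. In windows of 250 bases before to 50 after the start, TTTGAA on either strand was found in 19 of the 25 mitosis genes with a RefSeq promoter (76%), in 76 of 257 genes lower at High (29.6%), in 3 of 89 genes higher at High (3.37%) and in 9.33% of all 8148 promoters of genes at 10 CPM or more. The lower genes include genes of mitosis, and outside that list TTTGAA was in 58 of 233 lower genes (24.9%). CCAAT was found in 22 of 25 mitosis promoters (88%) and in 37.1% of all. It was in 43.2% of those of lower genes, and in 38.6% outside the mitosis list. Both motifs were looked up after the values were seen, and a match is a description of letters only.

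Genes of DNA replication, which act earlier in the cycle than those of mitosis, stayed mostly within 2-fold. Of 30 members, 1 was at least 2-fold lower at High, against 3.46% of all genes, with a list median of -0.19 (-0.31 length-centred). The member was RRM2, the small subunit of ribonucleotide reductase, at 69.9 CPM at High, 177 at Medium, 167 at Low and 170.0, 169.8 and 164 in the vehicle libraries. MCM7, a subunit of the replicative helicase, stood at 104 CPM at High against 174 and 176 (log2 ratio -0.75), while CDC6 and E2F1, a loader of that helicase and a factor for S phase entry, had ratios of 0.28 and 0.48. In bulk RNA fewer cells in mitosis and less RNA per cell cannot be told apart.

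CDKN1A (chr6:36676460-36687339), which encodes the cell cycle inhibitor p21, was higher at High: 89.3 CPM at High, 24.3 at Medium, 24.0 at Low and 21.2, 23.3 and 20.7 in the vehicle libraries. Medium and Low lay close above the vehicle, and the log2 ratio was 1.89. Of the 17 p53 targets at 10 CPM or more, CDKN1A and 2 others were at least 2-fold higher against the lower doses against 1.25% of all genes, and none was lower. The list median was 0.43, and 0.25 at a minimum of 5 CPM or 0.18 with none. The others were the stress cytokine GDF15 (12.1 CPM against 5.203 and 3.97) and SESN2 (59.3 against 27.7 and 25.4), a sestrin that is also an ATF4 target. GDF15 entered the 17 only through High, as its mean at the lower doses was 4.59 CPM. MDM2, the p53 antagonist and itself a classical p53 target, stood at 46.5 CPM at High, 44.8 at Medium, 44.1 at Low and 38.5, 42.8 and 44.3 in the vehicle libraries, a log2 ratio of 0.06. ZMAT3 (log2 ratio -0.21), XPC (-0.03), FAS (-0.20) and RRM2B (-0.44) were likewise not higher, and GADD45A (0.91) and the pro-apoptotic BAX (0.80) lay short of 2-fold.

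Genes under NRF2 lay mostly above the lower doses, by unequal amounts. Of 31 listed, 28 reached 10 CPM, and 4 were at least 2-fold higher than at the lower doses against 1.25% of all genes: HMOX1, AKR1C1, BLVRB and SRXN1. The list median was 0.63 with 22 of 28 above 0, and 0.46 after length centring. Against the vehicle 11 of 28 were higher, beside 4% of all genes, and the median was 0.92. BLVRB, biliverdin reductase B, which acts next to heme oxygenase, had 69.6 CPM at High, 36.2 at Medium, 26.9 at Low and 21.3, 23.9 and 17.8 in the vehicle libraries. SRXN1, sulfiredoxin, which repairs overoxidised peroxiredoxins, had 239.8 CPM at High, 132 at Medium, 93.8 at Low and 88.4, 82.8 and 92.0 in the vehicle libraries.

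Within the list, the enzymes for glutathione and thioredoxin lay between 1.5-fold and 2-fold over the lower doses. GCLM and GCLC, the subunits of the first enzyme of glutathione synthesis, had log2 ratios of 0.73 and 0.75. Glutathione reductase (GSR) had 0.78, thioredoxin (TXN) 0.67, its reductase (TXNRD1) 0.76 and the cystine carrier SLC7A11 0.70. The ferritin genes FTH1 and FTL stood at 4199 and 4046 CPM at High against 2819 and 2459 at Medium and 1838 and 1971 at Low. NQO1, a quinone reductase and often used as the NRF2 reference gene, stood at 264 CPM at High, 299.7 at Medium, 205 at Low and 155, 150.1 and 149 in the vehicle libraries. It was higher than the vehicle at all 3 doses but not highest at High (log2 ratio 0.06), and the pentose phosphate enzymes TKT (-0.42) and TALDO1 (-0.12) were also flat or lower. AKR1C3, at 5.59 CPM against 11.6 and 9.10, went the other way from AKR1C1. The antioxidant response element, read TGACNNNGC on either strand, was in 15 of 89 promoters of higher genes (16.9%), in 5 of 20 of this list (25%) and in 15.4% of all promoters.

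Other thiol and selenoprotein genes showed no common direction. Of 20 members, 1 was 2-fold higher than at the lower doses, against 1.25% of all genes. It was GSTO1, an omega-class glutathione transferase (95.3 CPM against 52.1 and 35.1). The list median was 0.03. GLRX2, a mitochondrial glutaredoxin, had a log2 ratio of 0.98 and GPX1, a glutathione peroxidase, -0.63. GPX4 stood at 139.8 CPM at High, 130.3 at Medium, 146 at Low and 109.9, 109.8 and 97.9 in the vehicle libraries.

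Metallothioneins are small cysteine-rich proteins that bind zinc. Each of the 3 genes at 10 CPM or more was at least 2-fold higher at High, against 1.25% of all genes. MT1X entered these only through High, as its mean at the lower doses was 9.99 CPM. With SLC30A1 the 3 genes gave their list a median of 1.39 (0.59 over all 7 members with no minimum level). MT2A stood at 440.1 CPM at High, 243 at Medium, 161 at Low and 117, 121 and 105 in the vehicle libraries. MT1X had 31.6 CPM at High, 11.8 at Medium, 8.19 at Low and 6.61, 7.23 and 6.53 in the vehicle libraries, and MT1E had 34.7 CPM at High, 12.3 at Medium, 8.81 at Low and 7.01, 6.43 and 6.48 in the vehicle libraries. All 3 were ordered Low, Medium, High, with Low already above the 3 vehicle libraries. In the Low library of Polygalae Radix, of the same library set, MT2A, MT1X and MT1E stood at 173, 8.75 and 10.0 CPM. Being above the vehicle at Low was thus not particular to this extract. The log2 ratios of the 3 genes to the lower doses were 1.12, 1.65 and 1.71 (0.91, 1.48 and 1.496 length-centred, since these are short transcripts). SLC30A1, the zinc exporter, stood at 78.0 CPM against 60.6 and 53.4 (0.45), and MT1F, MT1G and MT1M stood under 1 CPM at High. The 250 bases before the start of MT2A (chr16:56608334-56608583, plus strand) and MT1X (chr16:56682220-56682469, plus strand) are shown for their metal response element cores, TGCACNC or TGCGCNC on either strand, in capitals.
MT2A: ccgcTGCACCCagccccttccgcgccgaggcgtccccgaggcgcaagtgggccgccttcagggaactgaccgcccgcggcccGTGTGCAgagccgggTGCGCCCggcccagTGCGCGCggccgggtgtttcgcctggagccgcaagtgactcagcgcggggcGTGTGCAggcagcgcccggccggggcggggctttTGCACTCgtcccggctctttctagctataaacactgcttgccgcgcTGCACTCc
MT1X: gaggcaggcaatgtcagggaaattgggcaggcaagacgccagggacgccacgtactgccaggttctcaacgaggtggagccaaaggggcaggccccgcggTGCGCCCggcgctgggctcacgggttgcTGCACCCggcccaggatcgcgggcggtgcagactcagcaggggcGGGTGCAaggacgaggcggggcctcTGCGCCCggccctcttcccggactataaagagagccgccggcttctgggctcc
There were 7 matches in the MT2A window and 4 in that of MT1X. At least 1 match in the longer window was found in 44 of 89 promoters of higher genes (49.4%), in 35.4% of those of lower genes and in 39.9% of all promoters, so single matches to this short core are common. It was looked up after the values were seen.

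The cytosolic heat shock genes were mostly flat or lower. Of 21 members at 10 CPM or more, none was 2-fold higher and 3 were at least 2-fold lower, against 3.46% of all genes: HSPA8, HSPA1B and HSPA1A, with a list median of -0.19 (-0.32 without Low). HSPA8, the constitutive HSP70 of the cytosol, had 377 CPM at High, 1030.3 at Medium, 1105 at Low and 1215, 1205 and 1170.3 in the vehicle libraries, a log2 ratio of -1.501 with a replicate SD of 0.04. The inducible HSP70 genes HSPA1A (49.2 CPM against 91.8 and 109) and HSPA1B (34.8 against 66.8 and 76.3) are near-identical copies between which reads can be split. DNAJB1 (log2 ratio -0.13), HSPH1 (-0.34), BAG3 (0.12) and HSP90AA1 (0.16) lay well short of 2-fold. A heat shock element, in its form of 3 inverted units, was in none of 89 promoters of higher genes and in 2 of 257 of lower genes (0.778%). Only 0.245% of all promoters hold one, so a count of none in 89 cannot tell the groups apart.

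The ATF4 list held the most genes past 2-fold among those that were higher. Of 29 members at 10 CPM or more, 9 were at least 2-fold higher than at the lower doses, against 1.25% of all genes, and none was lower. The list median was 0.72 (0.61 length-centred) with 23 of 29 above 0, and Medium against Low gave 0.13. ASNS, asparagine synthetase, stood at 164 CPM at High, 54.0 at Medium, 49.9 at Low and 51.9, 48.6 and 49.9 in the vehicle libraries. TRIB3, a pseudokinase that feeds back on ATF4, had 83.6 CPM at High, 28.5 at Medium, 25.6 at Low and 26.6, 25.2 and 26.2 in the vehicle libraries. For both genes the 5 libraries other than High lay close together.

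SLC3A2, the heavy chain shared by several amino acid carriers, had 634 CPM at High, 242 at Medium, 174 at Low and 159, 148 and 155 in the vehicle libraries, so that Medium also exceeded the vehicle. CHAC1, which degrades glutathione, had 20.8 CPM at High, 9.06 at Medium, 7.31 at Low and 6.71, 6.78 and 5.34 in the vehicle libraries. PSAT1 of serine synthesis (log2 ratio 1.32), CBS of transsulfuration (1.38), PCK2 (1.06), SESN2 (1.16) and DDIT3 (1.01), which encodes the factor CHOP, completed the 9. CBS and CHAC1 entered the list only through High, as their means at the lower doses were 6.99 and 8.19 CPM. ATF4 itself stood at 297 CPM at High, 179 at Medium, 161 at Low and 143, 137 and 132 in the vehicle libraries (0.80), and the carriers SLC7A5 (0.93) and SLC1A5 (0.73) lay short of 2-fold. Other members did not follow: PHGDH, the first enzyme of serine synthesis, had 0.04, SLC38A2 -0.36, SLC7A1 -0.24 and STC2, a secreted stress hormone, -0.58. ATF3, another factor of this response in the immediate early list, was under 10 CPM but stood at 8.47 CPM at High against 1.89 and 2.38.

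ASNS carries the element through which ATF4 is known to act, and its 250 bases before the start (chr7:97872409-97872658, minus strand) are shown with the match to TGATGNAA in capitals.
ASNS: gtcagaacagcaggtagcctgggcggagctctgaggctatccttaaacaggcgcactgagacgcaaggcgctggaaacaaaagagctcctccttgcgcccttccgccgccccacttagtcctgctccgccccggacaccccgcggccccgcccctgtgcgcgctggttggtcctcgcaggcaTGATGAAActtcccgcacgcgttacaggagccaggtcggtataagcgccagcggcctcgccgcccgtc
The match begins 68 bases before the start. TGATGNAA on either strand was in 4 of 24 promoters of the list (16.7%), in 5 of 89 of higher genes (5.62%) and in 1.55% of all promoters.

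Programs that neighbour the ATF4 response held few members past 2-fold. None of 13 tRNA charging genes passed 2-fold against the lower doses (median 0.29). GARS1, for glycine, was nearest at 404 CPM against 217 and 201, and was past 2-fold against the vehicle (log2 ratio 1.07). Of 21 genes for folding in the endoplasmic reticulum, 2 were higher, against 1.25% of all genes. They were DNAJB9 (50.01 against 20.8 and 18.3 CPM) and HERPUD1 (169.7 against 75.2 and 68.0), which serves degradation of misfolded proteins. The list median was 0.20, and 0.31 without Medium and 0.10 without Low. The chaperone HSPA5 (BiP) stood at 3489.9 CPM at High, 3309 at Medium, 3075 at Low and 2988, 3170.1 and 3129 in the vehicle libraries, a log2 ratio of 0.13. None of 31 proteasome subunit genes was 2-fold apart from the lower doses. Against the vehicle 1 was higher, PSMB6 (log2 ratio 1.02), beside 4% of all genes. Still, 30 of 31 were above 0 against the lower doses, with a median of 0.27, and the median against the vehicle was 0.56. Medium against Low gave that list 0.33, so that without Medium or without Low the first median was 0.41 or 0.16, and length centring left the first median at 0.24 and moved the second to 0.27.

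**Figure D3:**
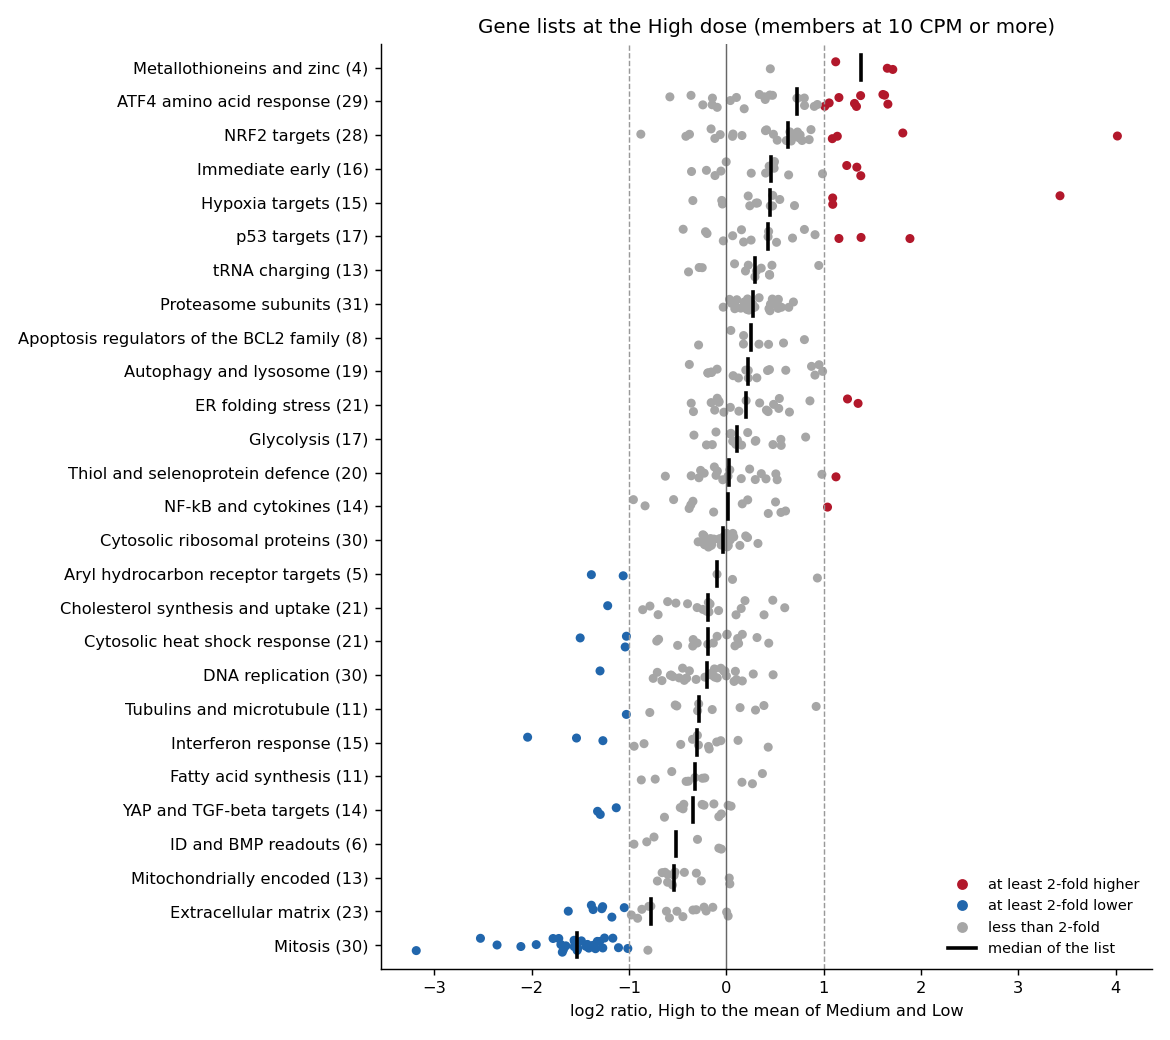
Log2 ratio of High to the mean of Medium and Low (horizontal axis) for each member at 10 CPM or more of 27 gene lists (rows, number of members in brackets); red and blue points are at least 2-fold higher or lower, black bars are list medians and dashed lines mark 2-fold. The mitosis list lies at or left of -0.81 throughout (median -1.53), and the metallothionein, ATF4 and NRF2 lists have the highest medians (1.39, 0.72 and 0.63).

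Genes of the extracellular matrix lay mostly below the lower doses at High, and below the vehicle further still. Of 23 members at 10 CPM or more, 7 were at least 2-fold lower than at the lower doses, against 3.46% of all genes. Lower than in the vehicle were 14, against 8.97% of all genes. The list median was -0.78 against the lower doses, -1.25 against the vehicle and -0.29 for Medium against Low. These are long transcripts (median 5.99 kb), and length centring moved the first 2 medians to -0.65 and -0.93. COL1A1, a chain of type I collagen, had 998 CPM at High, 2561 at Medium, 3587 at Low and 3715, 3746 and 3582 in the vehicle libraries. COL5A1 had 584 CPM at High, 1266 at Medium, 1789.9 at Low and 2262, 2346 and 2227 in the vehicle libraries, and THBS1, thrombospondin 1, had 529 CPM at High, 1199 at Medium, 1352 at Low and 1767, 1866 and 2059 in the vehicle libraries. In these genes High was the lowest library and Medium the next.

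COL3A1 (log2 ratio -1.37), COL1A2 (-1.18), THBS2 (-1.28) and FBN1 (-1.05), the gene of fibrillin 1, were the other 4 past 2-fold. FN1, fibronectin, had 1215 CPM at High, 1809 at Medium, 2626 at Low and 4085, 4678 and 4701 in the vehicle libraries, which is past 2-fold against the vehicle (log2 ratio -1.88) and not against the lower doses (-0.87). COL6A2 (0.00) and TGFBI (-0.23) did not differ by 2-fold in either comparison.

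Of 14 targets of YAP and TGF-beta, 3 were lower, against 3.46% of all genes: CCN2 (63.2 CPM against 148 and 169), TGFB2 (8.07 against 16.4 and 23.4) and the smooth muscle actin gene ACTA2 (42.7 against 87.3 and 99.9). CCN1, the closest relative of CCN2 on the list, had a log2 ratio of -0.44, and the list median was -0.34. None of 6 BMP readouts passed 2-fold, though all 6 lay below 0 (median -0.52, and -0.22 with no minimum level); ID2 stood at 12.8 CPM against 21.0 and 24.1. Among tubulins TUBA4A was lower than at the lower doses (68.6 against 137 and 143) but not 2-fold from the vehicle (-0.67), and TUBB3 was nearest to 2-fold higher (0.92).

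Immediate early genes, the first to answer growth factor and stress signalling, included 3 of 16 at least 2-fold higher, against 1.25% of all genes: KLF4 (18.7 CPM against 8.06 and 6.18), KLF2 (12.5 against 5.203 and 4.59) and DUSP1 (125 against 62.0 and 44.0), a phosphatase of p38 and JNK. KLF4 and KLF2 entered the 16 only through High, as their means at the lower doses were 7.12 and 4.90 CPM. EGR1 stood at 136 CPM at High, 136 at Medium, 137 at Low and 143, 170.4 and 174 in the vehicle libraries. The list median was 0.46.

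Of 15 hypoxia targets, ANGPTL4, ADM (27.3 CPM against 14.9 and 10.6) and NDRG1 (142 against 74.8 and 58.2) were higher, against 1.25% of all genes, with a list median of 0.45 (0.30 without Low). CA9, a carbonic anhydrase that is among the most specific targets of HIF-1, stood at 34.2 CPM at High, 55.3 at Medium, 31.5 at Low and 35.1, 32.0 and 31.0 in the vehicle libraries: it was highest at Medium and at High lay within the vehicle range. None of 17 genes of glycolysis passed 2-fold against the lower doses (median 0.11, 0.29 without Medium and 0.03 without Low). The nearest was ENO2 (0.81), which was past 2-fold against the vehicle (1.07). TXNIP, which the sugar sensor MondoA switches on and which binds thioredoxin, was below 10 CPM on both sides of the comparison with the lower doses, and was ordered Low, Medium, High downwards, at 1.496 CPM at High, 4.99 at Medium, 9.40 at Low and 10.8, 10.5 and 9.69 in the vehicle libraries.

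Inflammatory genes split. Of 14 NF-kB targets and cytokines at 10 CPM or more, only LIF was 2-fold higher than at the lower doses (57.6 CPM against 30.3 and 25.7). The share of all genes was 1.25%, and the list median was 0.02. CXCL8, interleukin 8, stayed under 10 CPM at 7.09 CPM at High, 7.09 at Medium, 3.38 at Low and 2.62, 2.19 and 3.21 in the vehicle libraries, equal at High and Medium. CSF3, a granulocyte growth factor also under 10 CPM, had 5.95 CPM at High, 0.965 at Medium, 0.376 at Low and 0.247, 0.199 and 0.327 in the vehicle libraries, while the adhesion gene ICAM1 was lower at 17.7 CPM against 28.2 and 40.4 (-0.95, short of 2-fold). Among 15 interferon response genes 3 were at least 2-fold lower, against 3.46% of all genes, and none higher: IFI44L (6.54 against 23.2 and 31.0), OAS3 (4.61 against 10.6 and 16.5) and IFIT1 (4.29 against 10.2 and 10.7). STAT2 (log2 ratio -0.10) and ISG15 (-0.06) lay well short of 2-fold, and the list median was -0.30 (-0.47 length-centred).

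CYP1B1, a target of the aryl hydrocarbon receptor, was lower at High with 39.0 CPM at High, 92.0 at Medium, 112 at Low and 110.2, 133 and 124 in the vehicle libraries, as was the receptor's repressor AHRR (14.5 against 26.6 and 34.1). Of the 5 listed targets at 10 CPM or more, these 2 were lower, against 3.46% of all genes, and none was higher. Of the 5, 2 lay above 0, with the amino acid carrier SLC7A5 highest at 0.93. TIPARP, another target, had a log2 ratio of -0.10, and CYP1A1 stood at 0.787 CPM at High and 0.823 ± 0.204 CPM (SD, n = 3) in the vehicle. Of 21 genes of cholesterol synthesis and uptake, none was 2-fold higher (median -0.19). HMGCS1, at the start of the pathway, had 29.5 CPM at High, 32.4 at Medium, 37.3 at Low and 38.8, 41.8 and 39.6 in the vehicle libraries, and the last-step enzyme DHCR7 had a log2 ratio of -0.78 where CYP51A1, in the middle of the pathway, had 0.39. None of 11 fatty acid synthesis genes was 2-fold lower than at the lower doses (median -0.32, -0.21 without Low). SCD, FASN and ACACA were so against the vehicle (-1.30, -1.04 and -1.08), beside 8.97% of all genes.

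None of 19 autophagy and lysosome genes passed 2-fold against the lower doses (median 0.23); MAP1LC3B, the LC3 gene, was nearest at 179.7 CPM against 92.9 and 88.2. None of 8 BCL2-family genes passed it either (median 0.26), with BCL2L1 at 0.59 and MCL1 at 0.05. The 30 ribosomal protein genes had a median of -0.04, whose sign changed with the scaling. Of 13 mitochondrially encoded genes 11 lay below 0 (median -0.54, -0.24 without Low), with MT-CO1 at 14800.2 CPM at High, 20995 at Medium, 27363 at Low and 23765, 24074 and 24189 in the vehicle libraries; these levels also varied by a replicate SD of 0.13, and Low was above the vehicle. Of the markers, SLC1A3 (9.33 against 16.4 and 23.7), SNAP25 (11.7 against 26.4 and 29.7) and KDR (13.2 against 25.8 and 30.6) were lower at High, and all 5 astroglial markers at 10 CPM or more lay below 0 (median -0.34). The summed astroglial markers were 7523 CPM at High, 8394 at Medium, 7880.2 at Low and 7520 to 7833 in the vehicle. The summed neuronal markers were 35.3 CPM at High, 49.6 at Medium, 54.5 at Low and 55.4 to 57.8 in the vehicle. The summed endothelial markers were 13.9, 27.4, 32.2 and 32.5 to 36.5 CPM in the same order, and the summed leukocyte markers, nearly all CD68, were 268, 217, 241 and 194 to 221 CPM. The part of these markers in the other results was not tested.

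The lower doses differed little from each other. Between Medium and Low 7 of 9884 genes (0.0708%) were at least 2-fold higher and 8 (0.0809%) lower. Against the vehicle, Low had 16 higher (0.162%) and 26 lower (0.264%) genes and Medium 42 (0.421%) and 219 (2.19%), counts that share the vehicle libraries. The genes that High set apart were nevertheless ordered at the lower doses: 114 of the 120 higher genes (95%) stood in the order Low, Medium, High, as did 32.8% of all genes, and 282 of the 317 lower genes (89.0%) in the reverse order, as did 31.0% of all. That High was the extreme is fixed by how the genes were chosen, and the place of Medium relative to Low is not. Among all genes High was not so fixed, so 32.8% and 31.0% are no like baseline for 95% and 89.0%. The median log2 ratio of Medium to Low was 0.37 in the higher and -0.32 in the lower genes, and 0.25 and -0.26 after length centring, where all genes had 0.0188 and 0.00217. From Medium to High the medians were 1.07 and -1.21.

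**Figure D4:**
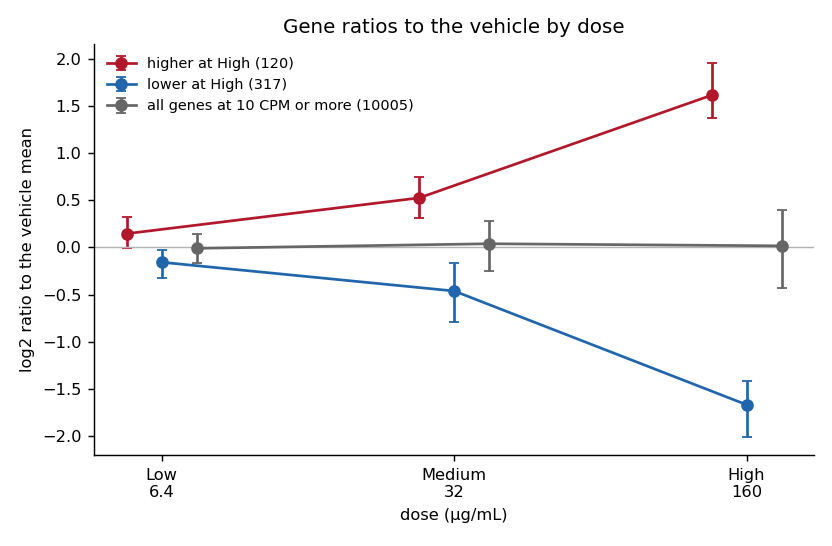
Median log2 ratio to the vehicle mean (points; bars are the quartiles over genes) at each dose for the 120 genes higher at High, the 317 lower at High and all 10005 genes. The medians of the higher genes were 0.15, 0.52 and 1.61 at Low, Medium and High, those of the lower genes -0.16, -0.46 and -1.67, and those of all genes stayed within 0.04 of 0.

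Of the 6 genes named for the largest increases from Low to Medium, ANGPTL4 (log2 ratio 2.09) and ZACN (1.91) were past 2-fold, and CXCR5, COX17, THBD and CA9 lay short of it (0.995 to 0.81). ZACN, a zinc-activated channel, had 23.3 CPM at High, 21.5 at Medium, 5.68 at Low and 2.91, 0.0997 and 0.0545 in the vehicle libraries, and CXCR5, a chemokine receptor, had 49.8 CPM at High, 40.7 at Medium, 20.4 at Low and 0, 0 and 6.15 in the vehicle libraries. Both had nearly no counts in 2 of 3 vehicle libraries and replicate SDs of 2.15 and 1.61, so their spread exceeded the difference between doses. COX17, a copper chaperone, had 13.9 CPM at High and 12.04 at Medium against 6.60 at Low. On the lower side the readthrough loci BIVM-ERCC5 (1.301 against 10.6 CPM) and PEDS1-UBE2V1 (7.22 against 16.2), PCDHGA10 of the protocadherin gamma cluster, NPIPB12 of a copied family and the antisense gene STARD4-AS1 share sequence with other genes, and their counts are uncertain. PLXDC1, a transmembrane plexin-domain protein, had 2.64, 4.41 and 11.2 CPM from High to Low.

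The same genes were read in the other extracts, each at its high dose against its own low dose, comparisons that share no library with those of Aucklandiae Radix. The high doses differed, at 500 µg/mL for 5 extracts, 310 for Schisandrae Fructus and 30 for Polygalae Radix, so the values are set side by side and no difference was tested. Soshiho-tang at 500 µg/mL (2 libraries a dose) had 34 of the 120 higher genes at least 2-fold higher (28.3%). These are 34.3% of its own 99 higher genes, themselves 0.998% of genes tested. It had 22 of the 317 lower genes lower (6.94%), which is 61.1% of its own 36 lower genes, themselves 0.363% of genes tested. Schisandrae Fructus (3 libraries a dose) had 17 of 120, which is 21.8% of its own 78 higher genes (0.781% of genes tested). It had 42 of 317, which is 13.2% of these genes and 45.7% of its own 92 (0.921% of genes tested). Polygalae Radix (1 library a dose), in the same library set, had 18 of 120 higher and 78 of 317 lower genes. In the opposite direction it had 7 of the 120 and 9 of the 317. It also had 801 and 1481 calls of its own (7.76% and 14.3% of genes tested). Liriopis seu Ophiopogonis Tuber, Longan Arillus and Yijin-tang had 0 of either group and Zizyphi Semen 1 and 5. Their own higher and lower genes were few: 0 and 0, 1 and 0, 22 and 0, and 1 and 16 in that order. Each was at most 0.223% of genes tested. In all, 70 of the 120 higher and 200 of the 317 lower genes were not past 2-fold in the same direction in any of the other 7 extracts (58.3% and 63.1%), as was true of 92.8% and 84.4% of all 10005 genes.

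HMOX1 in Soshiho-tang had a log2 ratio of 3.11 and THBD 2.61, beside 4.34 and 3.46 for Aucklandiae Radix High against its own Low. ANGPTL4 had 2.47 in Schisandrae Fructus and 1.41 in Zizyphi Semen, beside 4.82. KIF20A, at -3.36 here, had -2.63 in Polygalae Radix and lay between -0.64 and 0.37 in the other 6. The mitosis list had a median of -1.54 for Aucklandiae Radix, -0.63 for Polygalae Radix and -0.18 to 0.19 for the rest. The matrix list was lower in Polygalae Radix, at -2.07, than in Aucklandiae Radix, at -0.89, and lay between -0.32 and 0.06 in the rest. HSPA8 had -1.54 in Polygalae Radix and -1.55 in Aucklandiae Radix. The ATF4 list had 0.79, against 0.97 in Soshiho-tang and 0.65 in Schisandrae Fructus, and the NRF2 list 0.83 against 0.36 and 0.19. CXCL8 and TXNIP differed in pattern: CXCL8 had 4.12, 3.81 and 3.04 in Soshiho-tang, Yijin-tang and Schisandrae Fructus and 1.05 here, and TXNIP was higher in 5 of the 7 extracts, up to 4.97, and -2.59 here.

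**Figure D5:**
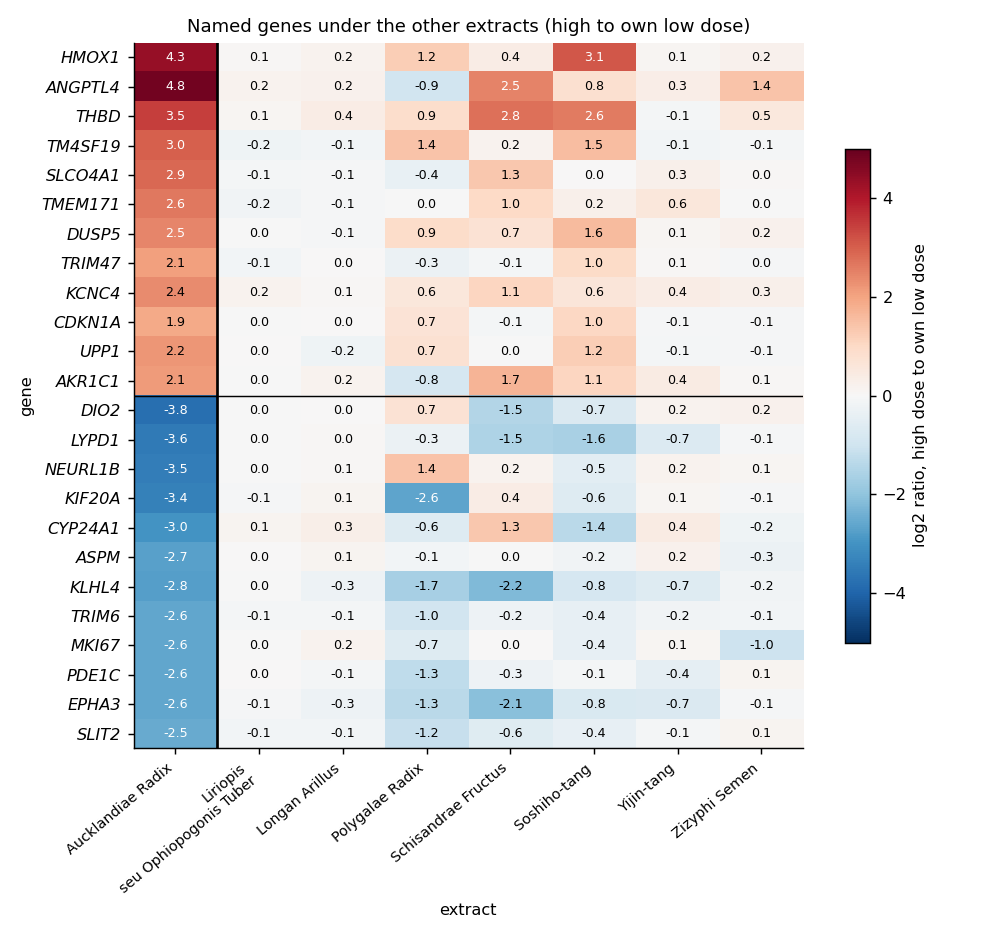
Log2 ratio of the high dose to the low dose of the same extract (colour and printed value) for the 24 genes with the largest increases and decreases (rows) in the 8 extracts (columns), at doses that differ between extracts. The Aucklandiae Radix column chose the rows; HMOX1 and THBD are also high in Soshiho-tang (3.11 and 2.61) and ANGPTL4 and THBD in Schisandrae Fructus (2.47 and 2.76), and the Liriopis seu Ophiopogonis Tuber column is near 0 throughout.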

How the data were processed

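Directional paired-end RNA sequencing libraries on an MGI platform were made from SW1783 cells, per the labels' protocols. Per the submitters' processing notes, the authors used FastQC 0.11.9, Trim Galore 0.6.5, STAR 2.7.3a and RSEM 1.3.3 with the hg38 build. The annotation release and the strand setting were not found in these sources. The authors deposited expected counts, estimated reads per Ensembl gene that need not be whole (10.86% were not), for 60675 genes.

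Expected counts were rounded to whole numbers and scaled to CPM with TMM factors over all 60 libraries (edgeR 4.0.16, R 4.3.3, used for scaling only). Symbols matched 56558 genes. Positions are of GENCODE release 29. Log2 ratios carried a prior count of 2, about 0.078 CPM. Counting intervals are exact Poisson 95% intervals of 1 library and cover counting error only. Groups came from the sample titles. No test was run, since each dose is 1 library.

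Genes named are the 12 largest increases and decreases, ranked against the lower doses among genes past 2-fold against both references. Also named are up to 5 members past 2-fold of each of 34 gene lists, or the 2 nearest where none was. Named too are 7 genes followed in every extract, and 6 of each direction for Medium against Low. Other list members were chosen for naming after their values were seen. The members and lists were chosen with earlier results of these data known. Alternatives were DESeq2 1.42.0 size factors, total counts, other minimum levels, fold thresholds, prior counts and references, leaving out each vehicle library, and length-centred ratios. The method was tested on simulated data. Promoters are of RefSeq. A few list members are not reported here.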

Additional observations from a re-analysis of the deposited data

How the results depend on the processing

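The counts of genes kept their size within 1.5 times under DESeq2 size factors, total counts and a prior count of 0.5. At a minimum of 5 CPM, Medium against Low gave 13 higher and 19 lower genes. With no minimum, there were 1235 higher and 1963 lower genes against the lower doses, 2067 and 2606 against the vehicle, 800 and 1279 against both, and 1233 and 1442 for Medium against Low. A fold threshold of 1.5 gave 592 and 1016, 1520 and 2014, 554 and 921, and 75 and 94 in the same order. With Low alone as the reference 227 genes were higher, 205 of them against both references, and with Medium alone 79 were higher against both. Length-centred ratios, chosen after seeing the data, gave 558 lower genes against the vehicle. Leaving out each vehicle library gave 376 to 434 higher and 858 to 1000 lower genes against the vehicle. The cause of these changes was not tested, beyond more genes being counted at a lower minimum or threshold. Of the 437 genes past 2-fold against both references, 416 were shared with DESeq2 size factors, 395 with total counts, 431 with Low alone, 311 with Medium alone and 351 with length-centred ratios. Of 927 alternative values of named genes 261 moved by more than the replicate spread, and none of a gene past 2-fold changed sign. Of the genes short of it, CA9 changed from -0.34 to 0.12 and NPIPB12 from 0.21 to -0.22 with Low alone, and CXCL8 from 0.43 to -0.001 with Medium alone. The median of the ribosomal protein list changed sign in 3 settings, that of the NF-kB list in 2 and that of the thiol list in 1. No paired analysis was possible because each dose is 1 library, so a dose shares fewer than 2 replicate numbers with any group it was compared with. At 24.08 to 24.60 M counts a gene at 10 CPM has about 240 counts, so counting error is small beside the missing replicates, which set the limit here.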

Other observations

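Feedback phosphatases and inhibitors of MAP kinase signalling were read as a family chosen after its values were seen, with all members kept. Of 17 dual-specificity phosphatase, Sprouty and SPRED genes, 11 reached 10 CPM and 4 of these were at least 2-fold higher than at the lower doses, against 1.25% of all genes, with a median log2 ratio of 0.32. DUSP6, the cytosolic phosphatase of ERK, had 78.4 CPM at High, 34.5 at Medium, 22.1 at Low and 20.5, 20.3 and 20.2 in the vehicle libraries. SPRY2, an inhibitor of receptor tyrosine kinase signalling, had 61.9 CPM at High, 34.5 at Medium, 23.1 at Low and 24.4, 22.7 and 24.5 in the vehicle libraries. DUSP5 and DUSP1, described above, were the others. HBEGF, a ligand of the EGF receptor, stood at 87.8 CPM at High, 42.9 at Medium, 33.6 at Low and 26.6, 26.5 and 25.5 in the vehicle libraries, and EGFR itself had a log2 ratio of -0.55. FGF7, a growth factor for epithelial cells, was lower, with 5.00 CPM at High, 20.6 at Medium, 24.4 at Low and 25.3, 25.3 and 27.2 in the vehicle libraries. HBEGF was the 1 of 5 EGF-family ligands and receptors at 10 CPM or more past 2-fold, against 1.25% of all genes higher. FGF7 was the 1 of 4 fibroblast growth factors and receptors past it, against 3.46% of all genes lower. Both families were also chosen after their values were seen.

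Axon guidance ligands and receptors, again a family chosen after its values were seen, lay mostly below the lower doses at High (24 of 26). Of 51 slits, netrins, class 3 semaphorins, ephrins and their receptors, 26 reached 10 CPM, 8 of them were at least 2-fold lower than at the lower doses, against 3.46% of all genes, and none was higher. The median log2 ratio was -0.59, and -0.42 after length centring, since these transcripts are long (median 6.14 kb). EPHA5, an ephrin receptor, had 5.28 CPM at High, 17.9 at Medium, 31.3 at Low and 38.4, 47.3 and 45.5 in the vehicle libraries. SEMA3A, a repulsive guidance ligand, had 31.9 CPM at High, 71.1 at Medium, 81.4 at Low and 84.8, 93.6 and 94.0 in the vehicle libraries. In both genes High was the lowest library. Clock genes were also a family chosen after its values were seen. Of 15 at 10 CPM or more, 2 were at least 2-fold lower, against 3.46% of all genes, and none was higher. They were PER2 (6.38 CPM against 12.8 and 16.9) and PER3 (20.1 against 39.0 and 52.6).

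A few features were nearly absent from the vehicle and present at every dose. There were 8 features under 3 CPM in each vehicle library and at 5 CPM or more in all 3 Aucklandiae Radix libraries, and ZACN was the 1 with a symbol. ENSG00000176868, annotated as antisense at chr9:131497479-131500191 (hg38), had 27.4, 19.1 and 7.48 CPM from High to Low and 0 in the vehicle libraries. In the Polygalae Radix libraries, of the same library set, it had 20.1, 12.9 and 18.5 CPM, and in the 51 libraries of the other extracts 0 to 19.9. Without a stated strand setting, reads of an antisense gene and of its partner cannot be told apart.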
